A study of Mus musculus with 24 samples.

Results

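The 8 genes described here encode 4 galectins and 4 S100 proteins: *Lgals1*, *Lgals3*, *Lgals8*, *Lgals9*, *S100a4*, *S100a6*, *S100a10* and *S100a11*. They were taken by symbol from the 55487 genes that the authors list in each of both value tables, and all 8 were found and tested in both. They were selected on their CPM values in these libraries, with attention to sgMed12, so their sgMed12 values are given as a description without a test (CPM, a gene's reads scaled to the same total in every library). The selection could also have drawn on the other comparisons, which use the same libraries. Their P values and counts of members are therefore not independent of the choice of genes. The cells were Cas9-LP cell lines, lymphoid progenitors (LPs) grown from the fetal liver of mice that lacked Ebf1 and carried a Rosa26-Cas9 knock-in. Without Ebf1, such progenitors do not go on to the B lineage. All groups carried both alleles, were kept with SCF, Flt3L and IL-7, and received a retrovirus with sgRNA-hNGFR. hNGFR+CD45+ cells were sorted 5 days after sgRNA transduction. The first experiment had LPs on OP9 stroma and Phase 1 cells, which were moved to OP9-DLL4 and so received Notch stimulation, each with sgControl (sgCont in the labels) or sgCbfb. The second had LPs with sgControl, sgCbfb, sgCTCF or sgMed12. Each of the 8 groups had 3 libraries, 24 in all. The sgRNA vectors against a gene were pooled, so that a library can hold a mixture of alleles, and the edited share was not measured here. The paper reported loss of the CBFβ protein by immunoblot in LPs with sgCbfb, and also blotted for CTCF and Med12.

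Galectins are lectins that bind β-galactoside sugars on glycoproteins. They are made without a signal peptide, act inside cells and leave them by an unusual route, and outside the cell they cross-link receptors on lymphocytes. S100 proteins are small EF-hand calcium sensors that work as dimers and bind partners such as annexins and the cytoskeleton. Several members of both families are well expressed in myeloid cells and in activated T cells. CBFβ is the shared partner of the RUNX factors and strengthens their DNA binding, CTCF organises chromatin loops, and MED12 belongs to the kinase module of Mediator.

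The S100 members lie on chromosome 3 in the GENCODE M21 annotation of GRCm38, which holds 14 protein-coding *S100a* genes there. *S100a4* (3:90603771-90606045, + strand) and *S100a6* (3:90612882-90624181, + strand) are 6.84 kb apart, with *S100a5* between them. *S100a11* (3:93520488-93526287, + strand) and *S100a10* (3:93555080-93564643, + strand) are neighbours farther along the chromosome, 28.8 kb apart. Of the 14, 5 had a mean over 10 CPM in both experiments: the 4 members and *S100a13*. The galectins are scattered, with *Lgals1* at 15:78926725-78930465 (+), *Lgals3* at 14:47367751-47386160 (+), *Lgals8* at 13:12439415-12464944 (-) and *Lgals9* at 11:78962974-78984946 (-). *Lgals8* shares 155 exonic bases near its 3′ end with *Heatr1* on the other strand, and *S100a4* shares 302 with *Gm42674*, which was listed at 0 in all libraries.

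The bases before the start sites of *S100a6*, *S100a4* and *Lgals9* are shown because these genes differed most clearly, or lie side by side and differed unequally, in cells with sgCbfb. Each is the 250 bases before the start, 5′ to 3′ in the direction of the gene, from RefSeq promoter entries on GRCm38.p6. They lie at chr3:90612644-90612893 for *S100a6*, chr3:90603520-90603769 for *S100a4* and chr11:78984925-78985174 for *Lgals9*. Capitals mark the RUNX motif TGTGGT on either strand in *S100a6*, and, read from the other strand, a match to the interferon-stimulated response motif, 2 copies of GAAA with 2 bases of any kind between them, in *Lgals9*.
S100a6: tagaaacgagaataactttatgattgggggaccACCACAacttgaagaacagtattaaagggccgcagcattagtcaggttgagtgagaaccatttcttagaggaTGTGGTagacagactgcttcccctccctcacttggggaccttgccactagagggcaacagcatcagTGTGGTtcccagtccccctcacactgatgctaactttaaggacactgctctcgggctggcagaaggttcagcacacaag
S100a4: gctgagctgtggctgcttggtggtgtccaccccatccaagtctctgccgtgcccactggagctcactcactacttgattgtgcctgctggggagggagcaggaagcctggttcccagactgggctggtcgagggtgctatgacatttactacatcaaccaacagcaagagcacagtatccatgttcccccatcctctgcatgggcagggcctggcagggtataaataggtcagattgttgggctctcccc
Lgals9: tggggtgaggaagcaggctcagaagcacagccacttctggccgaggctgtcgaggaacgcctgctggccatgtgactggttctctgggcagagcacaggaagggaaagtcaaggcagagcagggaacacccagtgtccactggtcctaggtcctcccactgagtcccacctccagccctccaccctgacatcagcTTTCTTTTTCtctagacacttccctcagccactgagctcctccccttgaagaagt
The *S100a6* window holds 3 matches to TGTGGT, which begin 217, 145 and 79 bases before the start. Of 32851 promoter windows of this length, 14% hold at least 1 match and 0.113% hold 3 or more. The *S100a4* window has none of the letters searched. The match in *Lgals9* begins 55 bases before the start, and 2.98% of windows hold this motif. *Lgals8* has 1 match to TGTGGT and 1 to AGGNGGC, a core of the CTCF motif that 25.0% of windows hold. The motifs do not overlap each other in these windows, and the windows of *Lgals3* and *S100a11* hold none of the letters searched. Forms of the RUNX motif other than TGTGGT were not searched. *Lgals1* and *S100a10* have no entry. These matches describe letters and no binding was measured here.

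Reads on genes numbered 1363263 to 1743319 a library in the first experiment, where a count of 0 allows up to 2.20 CPM. The second had 3354483 to 4326783, where it allows up to 0.894 CPM. The 8 members had at least 12 reads in every library. In libraries with sgMed12, 8.44% to 13.7% of the reads were mitochondrial, against 6.76% to 8.15% in the other libraries of the second experiment. The LP markers *Ptprc*, *Il7r*, *Flt3*, *Cd34* and 5 others were all above 3 reads in every group, and the B cell genes *Cd79a* and *Cd79b* were at or near 0. Levels of LP markers differed between groups. With sgControl, *Flt3* averaged 273 CPM in LPs and 36.1 CPM in Phase 1 cells, *Mef2c* 961 and 299 CPM, and *Kit* 30.2 and 133 CPM. In LPs of the first experiment, *Cd34* averaged 260 CPM with sgControl and 526 CPM with sgCbfb. Reads at the 3′ end of *Ebf1* averaged 161 to 334 CPM by group, and these reads do not check the deletion. All 8 Phase 1 markers rose from sgControl LPs to sgControl Phase 1 cells. Of the targeted genes, *Cbfb* averaged 86.5 CPM in sgControl and 40.2 CPM in sgCbfb LPs of the first experiment, and 114 and 48.4 CPM in the second. It was at 44.7 to 81.3 CPM in Phase 1 cells with sgControl and 44.1 to 63.5 CPM with sgCbfb (means of 66.5 and 53.9 CPM), so that the groups overlapped. *Ctcf* averaged 391 CPM with sgControl and 306 CPM with sgCTCF, and *Med12* 5.14 CPM with sgControl and 7.01 CPM with sgMed12. The reads come from the 3′ end of the mRNA, away from the edited sites, so these values say little about editing.

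Differences were tested with limma on log2(CPM + 1) over all genes of an experiment, with all 4 groups in one fit and Benjamini-Hochberg adjustment. A gene was called, as rising or falling, when its adjusted P value was under 0.05, its group means differed by over 2-fold and at least 1 of them was over 10 CPM. Fold changes are log2 differences with the standard error (SE) of the fit, on the log2(CPM + 1) scale. Comparisons within an experiment share sgControl libraries. The replicates were stated to be biologically independent. In bulk RNA, fewer cells that hold an mRNA and less of it per cell cannot be told apart.

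*S100a6*, which encodes calcyclin, had the clearest pattern with sgCbfb. In LPs of the first experiment, its level was 30.7, 39.0 and 45 CPM for sgControl and 87.5, 83.2 and 80.6 CPM for sgCbfb. In LPs of the second, it was 43.5, 43.7 and 26.8 CPM for sgControl and 90.9, 155 and 112 CPM for sgCbfb. The sgCbfb libraries were all above the sgControl libraries in both experiments, which have separate sgControl libraries. It rose by a log2 fold change of 1.13 (SE 0.18, adjusted P = 0.000456) in the first and 1.62 (SE 0.20, adjusted P = 1.17e-06) in the second. In Phase 1 cells, it went from 48.7, 49.7 and 49.9 CPM with sgControl to 136, 115 and 111 CPM with sgCbfb, a log2 fold change of 1.27 (SE 0.18, adjusted P = 7.76e-05). The sgCbfb effect on *S100a6* differed between stages by 0.14 on the log2 scale (95% interval -0.39 to 0.67, adjusted P = 0.914). In LPs of the first experiment, the call was lost on the fold threshold without sgControl replicate 1, at a log2 fold change of 0.98.

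**Figure D1:**
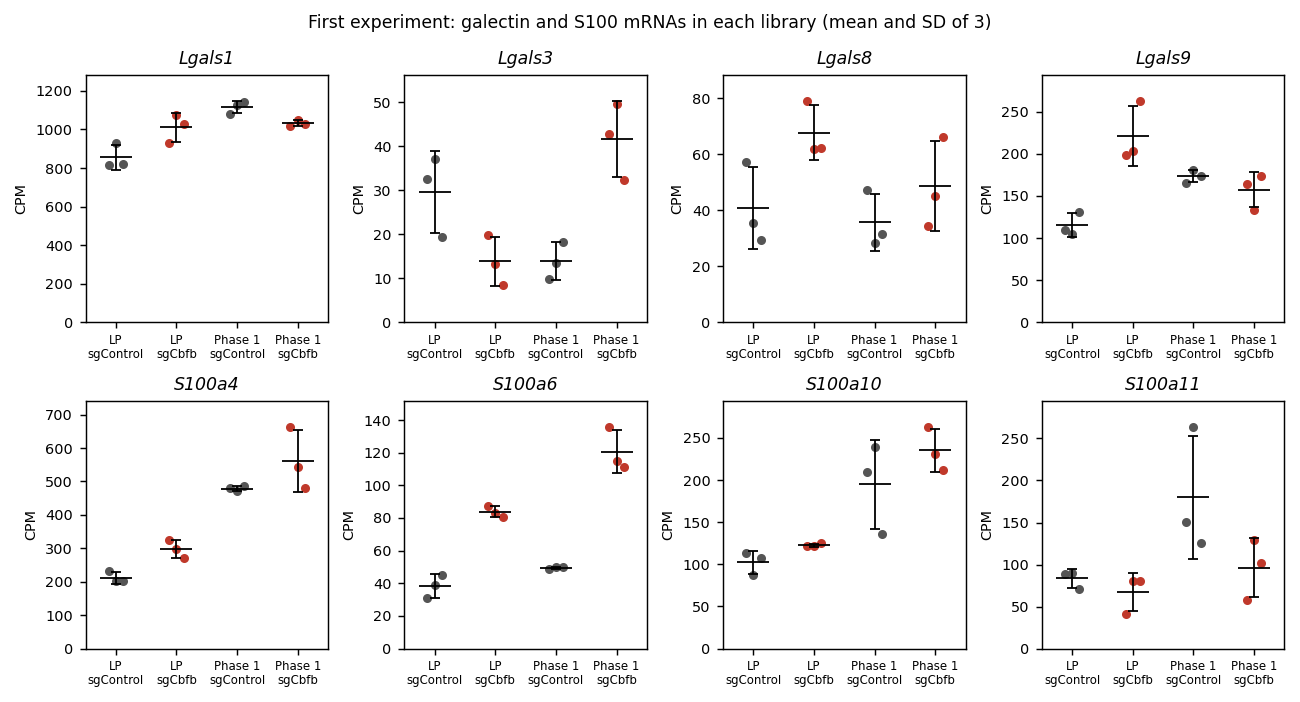
The level of each of the 8 mRNAs in CPM, on an axis from 0, in the 12 libraries of the first experiment. Points are libraries, and the bars are the mean and SD of the 3 libraries of a group. For *S100a6*, the sgCbfb libraries are above the sgControl libraries in LPs and in Phase 1 cells, and *Lgals3* is high in sgCbfb Phase 1 cells, at 32.4 to 49.6 CPM.

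In sgCbfb LPs of the first experiment, *S100a6* was the only member called, 1 of 8, where 1.69% of all 13239 genes tested were called. The sgCbfb libraries lay entirely above the sgControl libraries for 6 of the 8 members, against 9.11% of all genes in that direction. In the second experiment, 3 of 8 were called, where 4.33% of 13177 genes were, and 5 of 8 lay entirely above, against 15.5%. The median log2 fold change of the 8 was 0.38 in the first and 0.59 in the second, where the median of all genes tested was 0 and -0.01. For 7 of the 8, the sign was shared by both experiments, with *Lgals1* as the exception. In Phase 1 cells, 2 of 8 were called with sgCbfb, against 3.52% of all genes.

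*Lgals9*, a galectin with 2 sugar-binding domains that is a ligand of TIM-3 on T cells, was higher with sgCbfb in LPs of both experiments. Its level was 110, 105 and 131 CPM for sgControl and 198, 204 and 263 CPM for sgCbfb in the first experiment. In the second, it was 111, 121 and 107 CPM for sgControl and 448, 296 and 268 CPM for sgCbfb. The groups did not overlap in either. The difference was 0.93 (SE 0.15, adjusted P = 0.00045) in the first, which was just under the fold threshold, and 1.53 (SE 0.15, adjusted P = 1.83e-08) in the second, where it was called. Without sgCbfb replicate 1 or 2 or sgControl replicate 3, it was also called in LPs of the first experiment, with log2 fold changes of 1.01, 0.99 and 1.03. In Phase 1 cells, *Lgals9* was at 166, 181 and 174 CPM for sgControl and 164, 134 and 174 CPM for sgCbfb, and these ranges overlapped. The sgCbfb effect was lower in Phase 1 cells than in LPs by 1.08 on the log2 scale (SE 0.21, adjusted P = 0.00769). The interaction was called for 1.19% of all genes.

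*Lgals3* encodes the galectin that forms oligomers through its N-terminal tail and is abundant in macrophages. With sgCbfb, it differed in opposite directions in LPs and Phase 1 cells. In LPs of the first experiment, it was at 32.5, 37.2 and 19.3 CPM for sgControl and 19.7, 13.2 and 8.56 CPM for sgCbfb, ranges that touch (log2 fold change -1.07, SE 0.35, adjusted P = 0.135). In LPs of the second, it was at 15.6, 34.3 and 21.2 CPM for sgControl and 4.77, 15.8 and 8.57 CPM for sgCbfb. This was called as a fall (log2 fold change -1.27, SE 0.29, adjusted P = 0.00372), although 1 sgCbfb library was above the lowest sgControl library. The call was lost without sgCbfb replicate 1 (-0.89) or sgControl replicate 2 (-0.97). In Phase 1 cells, *Lgals3* rose from 9.88, 13.5 and 18.3 CPM to 42.8, 49.6 and 32.4 CPM, with no overlap (log2 fold change 1.53, SE 0.35, adjusted P = 0.00826). Without sgCbfb Phase 1 replicate 2, its adjusted P value was 0.0629. The effect of sgCbfb was higher in Phase 1 cells than in LPs by 2.60 on the log2 scale (SE 0.50, adjusted P = 0.00686).

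*S100a4*, which binds non-muscle myosin, and *Lgals8*, a galectin that recognises damaged endosomes, were higher with sgCbfb in LPs by less than the fold threshold. *S100a4* was at 232, 201.2 and 202.3 CPM for sgControl and 324, 298 and 271 CPM for sgCbfb in the first experiment (0.49, SE 0.12, adjusted P = 0.0318). In the second, it was at 202, 243 and 205 CPM for sgControl and 304, 445 and 386 CPM for sgCbfb (0.79, SE 0.15, adjusted P = 0.000627). Neither pair of groups overlapped, and the log2 differences of *S100a6*, 2 genes away, were 1.13 and 1.62. *Lgals8* was at 57.2, 35.3 and 29.5 CPM for sgControl and 79.0, 61.9 and 62.1 CPM for sgCbfb in the first (0.77, SE 0.27, adjusted P = 0.187). It was at 36.7, 40.2 and 29.5 CPM for sgControl and 75.1, 60.6 and 53.9 CPM for sgCbfb in the second (0.82, SE 0.16, adjusted P = 0.000502). The strand used in counting is not given, so reads in the exonic bases that *Lgals8* and *Heatr1* share cannot be told apart. The remaining members were nearer to sgControl. *S100a10* differed by 0.27 (adjusted P = 0.645) and 0.39 (adjusted P = 0.0487), *S100a11* by -0.37 (adjusted P = 0.738) and -0.30 (adjusted P = 0.185), and *Lgals1* by 0.24 (adjusted P = 0.258) and -0.01 (adjusted P = 0.974) in the first and second experiments. In Phase 1 cells, *S100a11*, a partner of annexin A1, was at 151, 263 and 125 CPM for sgControl and 58.4, 129 and 102 CPM for sgCbfb (-0.89, SE 0.29, adjusted P = 0.0728).

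Markers of monocytes and macrophages moved with sgCbfb. The summed level of 12 such genes went from 84.1-119 to 508-592 CPM in LPs and from 60.0-71.9 to 412-447 CPM in Phase 1 cells of the first experiment, and from 79.4-99.8 to 707-802 CPM in the second. *Mrc1* and *F13a1* were called higher in all 3 comparisons and *Adgre1* in Phase 1 cells, while *C1qa*, *Cd14* and *Ms4a7* were at 0 in every library of both experiments. The sum was 60.1-85.5 CPM with sgCTCF and 67.0-95.9 CPM with sgMed12. The 10 granulocyte markers went from 6.49-16.1 to 20.7-25.4 CPM in sum in LPs of the first experiment with sgCbfb, and from 7.30-13.7 to 16.6-32.5 CPM in the second, where *Mpo* was called higher (1.43, adjusted P = 0.00225). The 6 mast cell and basophil markers summed to at most 3.77 CPM in any library outside sgControl Phase 1 cells, where the sum was 48.4-80.0 CPM. *Cpa3* held all of it, called higher in Phase 1 cells than in LPs with sgControl and lower with sgCbfb in Phase 1 cells. The 17 stromal markers summed to at most 63.3 CPM in any library. In the second experiment, their sum was 7.55-46.1 CPM with sgControl, 2.27-27.1 CPM with sgCbfb, 24.3-43.7 CPM with sgCTCF and 13.7-63.3 CPM with sgMed12. The part of these markers in the sgCbfb, sgCTCF, sgMed12 and stage results was not tested.

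**Figure D2:**
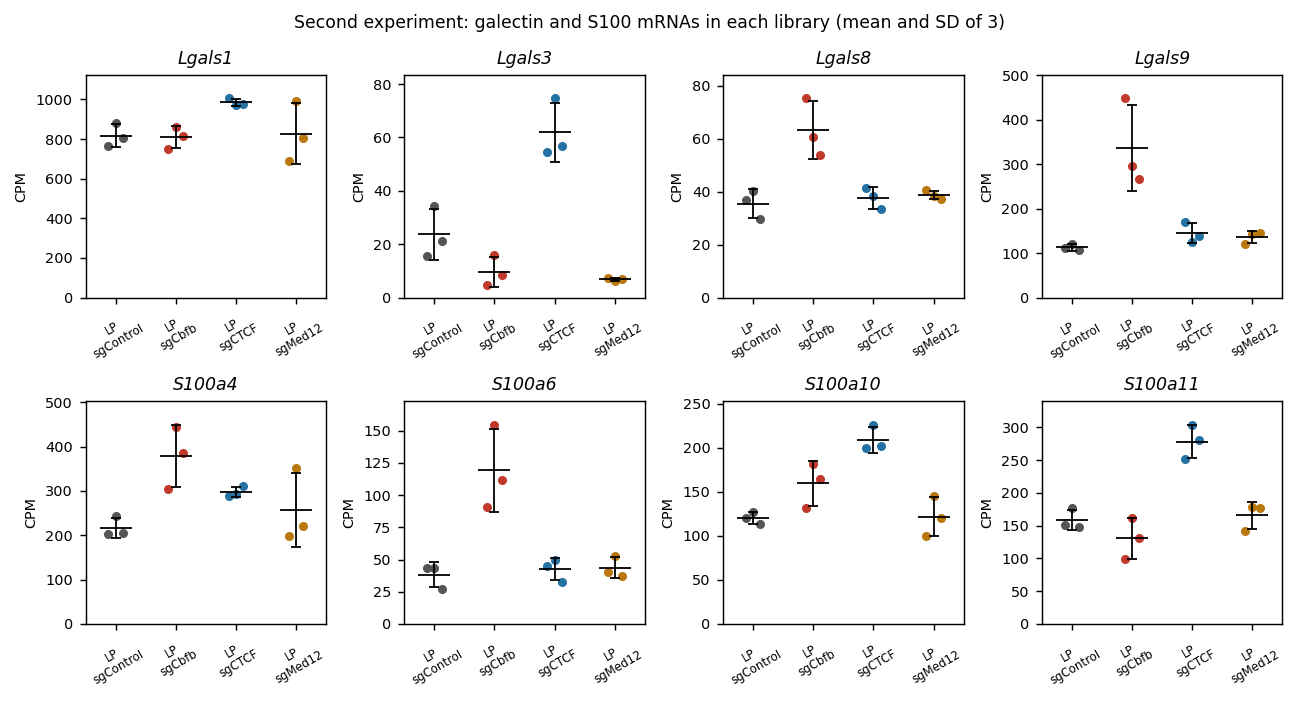
The level of each of the 8 mRNAs in CPM, on an axis from 0, in the 12 LP libraries of the second experiment. Points are libraries, and the bars are the mean and SD of the 3 libraries of a group. *S100a6*, *Lgals8* and *Lgals9* are highest in the sgCbfb libraries, *Lgals3*, *S100a10* and *S100a11* on average with sgCTCF, and *Lgals3* is at 6.39 to 7.35 CPM with sgMed12.

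With sgCTCF, all 8 members had a mean above that of the sgControl libraries, which the second experiment's comparisons share. *Lgals3* was called, 1 of 8 members where 2.43% of all genes were, and 6 of 8 lay entirely above sgControl, against 16% of all genes. *Lgals3* rose from 15.6, 34.3 and 21.2 CPM to 54.5, 74.6 and 56.9 CPM (log2 fold change 1.41, SE 0.29, adjusted P = 0.00216). *S100a10* encodes the S100 protein that has lost calcium binding and pairs with annexin A2 at the membrane. It was at 121, 127 and 114 CPM with sgControl and 200, 226 and 202 CPM with sgCTCF (0.79, SE 0.13, adjusted P = 0.00017). Its neighbour *S100a11* was at 151, 177 and 148 CPM with sgControl and 252, 303 and 280 CPM with sgCTCF (0.81, SE 0.14, adjusted P = 0.00029). Both lay entirely above sgControl and under the fold threshold. *S100a6* was at 44.8, 49.6 and 32.8 CPM with sgCTCF, within reach of its sgControl libraries (0.17, 95% interval -0.24 to 0.58). The values of *S100a4* (0.46, adjusted P = 0.06), *Lgals9* (0.34, adjusted P = 0.155), *Lgals1* (0.27, adjusted P = 0.129) and *Lgals8* (0.09, adjusted P = 0.797) did not pass the test.

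With sgMed12, *Lgals3* stood apart from the other members. It was at 7.35, 6.39 and 6.81 CPM, or 26, 22 and 24 reads, against 15.6, 34.3 and 21.2 CPM with sgControl, which is 3.46-fold lower on average. The log2 difference was -1.58 (SE 0.29), and no sgMed12 library reached the lowest sgControl library. The other 7 differed from sgControl by between 0.00 and 0.26, and their ranges all overlapped. By the same thresholds 1.03% of all genes were called, and 21.3% had groups that did not overlap. *Lgals1* was at 689, 991 and 803 CPM and *S100a4* at 197, 352 and 221 CPM with sgMed12, so that their spread (SD 153 and 83.6 CPM) was wider than with sgControl (SD 56.9 and 22.6 CPM). Replicate 2 was the highest for both. It also stood apart over all genes with enough reads, at a chi-square per degree of freedom of 17.6 and 9.43 against replicates 1 and 3. Between replicates 1 and 3, this value was 4.49. *S100a6* was at 40.7, 52.9 and 37.5 CPM, *S100a10* at 100, 145 and 120 CPM, and *S100a11* at 142, 179 and 177 CPM. *Lgals8* was at 40.4, 38.4 and 37.2 CPM, and *Lgals9* at 121, 142 and 145 CPM. With any 1 library left out, the *Lgals3* difference was between -1.84 and -1.29. It was the member with the largest ratio of highest to lowest group mean in this experiment, 9.05, between sgCTCF and sgMed12. Set against sgCTCF, *S100a10* and *S100a11* were lower with sgMed12 by -0.79 and -0.74 on the log2 scale, and these and *Lgals3* were the 3 members without overlap, against 17.6% of all genes that were lower in this way. Set against sgCbfb, *S100a6*, *Lgals9* and *Lgals8* differed by -1.41, -1.27 and -0.68, the 3 members that lay entirely below, against 15.2% of all genes. *Lgals3* was low in both, at 4.77 to 15.8 CPM with sgCbfb. The mitochondrial share was also higher with sgMed12, and its part was not tested. Over all settings on the full set of libraries, the *Lgals3* difference ranged from -1.74 to -1.22. These settings include a library total without mitochondrial genes and the most abundant transcript. The sgMed12 values chose the members, so the SE, the shares and these ranges are a description and no test.

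**Figure D3:**
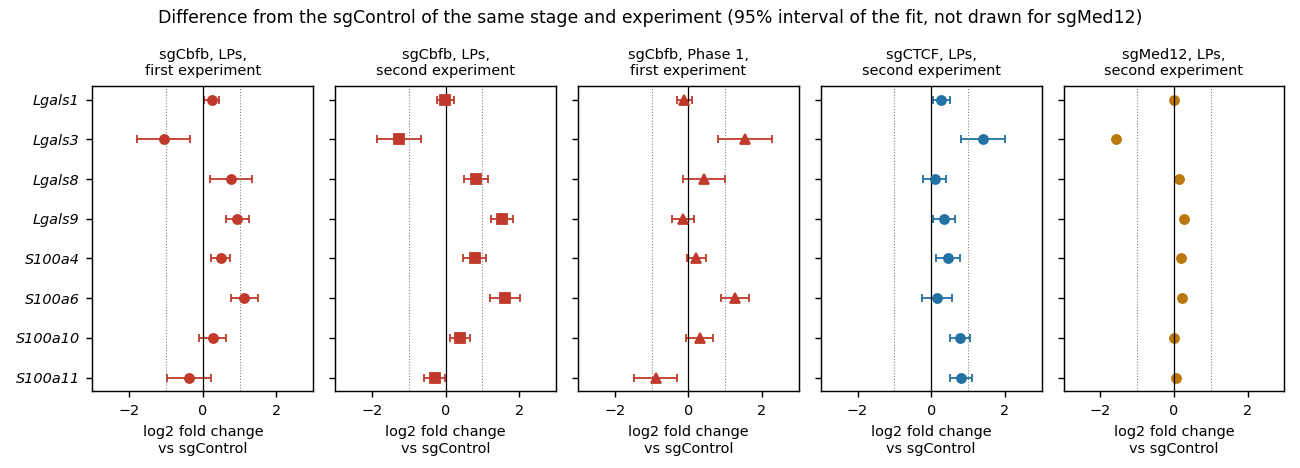
The log2 fold change of each of the 8 mRNAs against the sgControl of the same stage and experiment (x axis), with the 95% interval of the fit as bars and dotted lines at -1 and 1. *S100a6* is to the right in all 3 sgCbfb comparisons and *Lgals3* changes side between them. The sgMed12 values are points without intervals, with *Lgals3* at -1.58 and the others between 0.00 and 0.26.

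Notch stimulation was compared in sgControl cells of the first experiment. *S100a4* and *S100a11* were called higher in Phase 1 cells, 2 of 8 members where 3.39% of all genes were called. *S100a4* rose from 232, 201.2 and 202.3 CPM in LPs to 480, 471 and 486 CPM in Phase 1 cells (log2 fold change 1.18, SE 0.12, adjusted P = 9.58e-07). *S100a11* rose from 89.1, 90.4 and 70.6 CPM to 151, 263 and 125 CPM (1.04, SE 0.29, adjusted P = 0.031). The second of these rested on single libraries. It was lost without any of the 3 sgControl LP libraries (1.09, 1.10 and 0.92) and without sgControl Phase 1 replicate 2, the highest (0.72). *S100a10* was at 113, 87.3 and 107 CPM in LPs and 210, 239 and 136 CPM in Phase 1 cells (0.89, SE 0.17, adjusted P = 0.00194). *Lgals9* was higher by 0.59 (adjusted P = 0.0162) and *Lgals1*, whose dimeric product cross-links CD7, CD43 and CD45 on T cells, by 0.39 (adjusted P = 0.0151), both under the fold threshold. *Lgals3* was at 9.88 to 18.3 CPM in Phase 1 cells and 19.3 to 37.2 CPM in LPs (-1.03, adjusted P = 0.0898). For 6 of 8 members the Phase 1 libraries lay entirely above the LP libraries, against 9.77% of all genes, and for *Lgals3* entirely below, against 12.1%.

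In sgCbfb cells, the same comparison called *Lgals3*, 1 of 8 members where 1.19% of all genes were called. It went from 19.7, 13.2 and 8.56 CPM in LPs to 42.8, 49.6 and 32.4 CPM in Phase 1 cells (1.57, SE 0.35, adjusted P = 0.0147). The call was lost without LP replicate 2 or 3 (1.58 and 1.29) or Phase 1 replicate 1 or 2 (1.54 and 1.44). *S100a4* went from 324, 298 and 271 CPM to 662, 543 and 481 CPM (0.91, SE 0.12, adjusted P = 9.51e-05). *S100a10* went from 121, 122 and 125 CPM to 263, 231 and 212 CPM (0.93, SE 0.17, adjusted P = 0.00271). The stage effects differed between sgCbfb and sgControl cells by -0.27 (95% interval -0.63 to 0.09) for *S100a4* and 0.04 (-0.47 to 0.55) for *S100a10*. *Lgals9* was at 198 to 263 CPM in LPs and 134 to 174 CPM in Phase 1 cells (-0.49, adjusted P = 0.108), whereas in sgControl cells it was higher in Phase 1.

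Within an experiment, the order of the group means shows which levels are separate. In the first, *S100a6* went down from sgCbfb Phase 1 (121 ± 13 CPM, SD, n = 3) over sgCbfb LPs (83.8 ± 3.45) and sgControl Phase 1 (49.4 ± 0.63) to sgControl LPs (38.2 ± 7.17), with no overlap between neighbours. *S100a4* had the same top group, sgCbfb Phase 1 at 562 ± 92.0 CPM, but it overlapped sgControl Phase 1 at 479 ± 7.39 CPM. In the second, *S100a6* with sgCbfb (119 ± 32.5 CPM) was separate from sgMed12 (43.7 ± 8.13), sgCTCF (42.4 ± 8.63) and sgControl (38.0 ± 9.72), which overlapped. *Lgals8* and *Lgals9* had sgCbfb alone at the top as well, at 63.2 ± 10.8 and 337 ± 97.3 CPM. *Lgals3* had sgCTCF alone at the top, at 62 ± 11 CPM, over sgControl (23.7 ± 9.59), sgCbfb (9.72 ± 5.62) and sgMed12 (6.85 ± 0.48), of which each overlapped the next. *Lgals1* varied least, with ratios of highest to lowest group mean of 1.30 and 1.22 in the 2 experiments.

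Across the 12 libraries of an experiment, the 8 mRNAs fell into no single pattern. In the second, *Lgals8* and *Lgals9* followed each other (Pearson's r 0.95), as did *S100a6* with both (0.89 and 0.84), while *Lgals3* went with *S100a11* (0.84). In the first, these values were 0.38, 0.34, 0.50 and -0.21, and the pair most alike was *S100a4* and *S100a10* (0.92, and 0.68 in the second). The libraries share groups, so these values describe the groups as much as the genes. Among 8604 other genes, those most like *S100a6* in the second experiment were *Tgfb2* (r 0.98, and 0.68 in the first) and *Abcg3* (0.96 and 0.95). For *Lgals9* they were *Parp14* (0.99 and 0.34) and *Epsti1* (0.98 and 0.50), and for *Lgals8* *Epsti1* (0.97 and -0.22) and *Irf7* (0.96 and 0.27). *Lgals3* was most like *Grhpr* (0.94 and -0.07) and *Sdc1* (0.94 and 0.56), and *Lgals1* most like *Actb* (0.94 and 0.71) and *Habp4* (0.92 and -0.24). *S100a4* was most like *Pde8a* (0.93 and -0.38) and *Lrp12* (0.91 and 0.03), *S100a10* most like *Serpinb6b* (0.97 and 0.54) and *Vim* (0.97 and 0.24), and *S100a11* most like *Itgb7* (0.97 and 0.73) and *Napsa* (0.96 and 0.83).

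**Figure D4:**
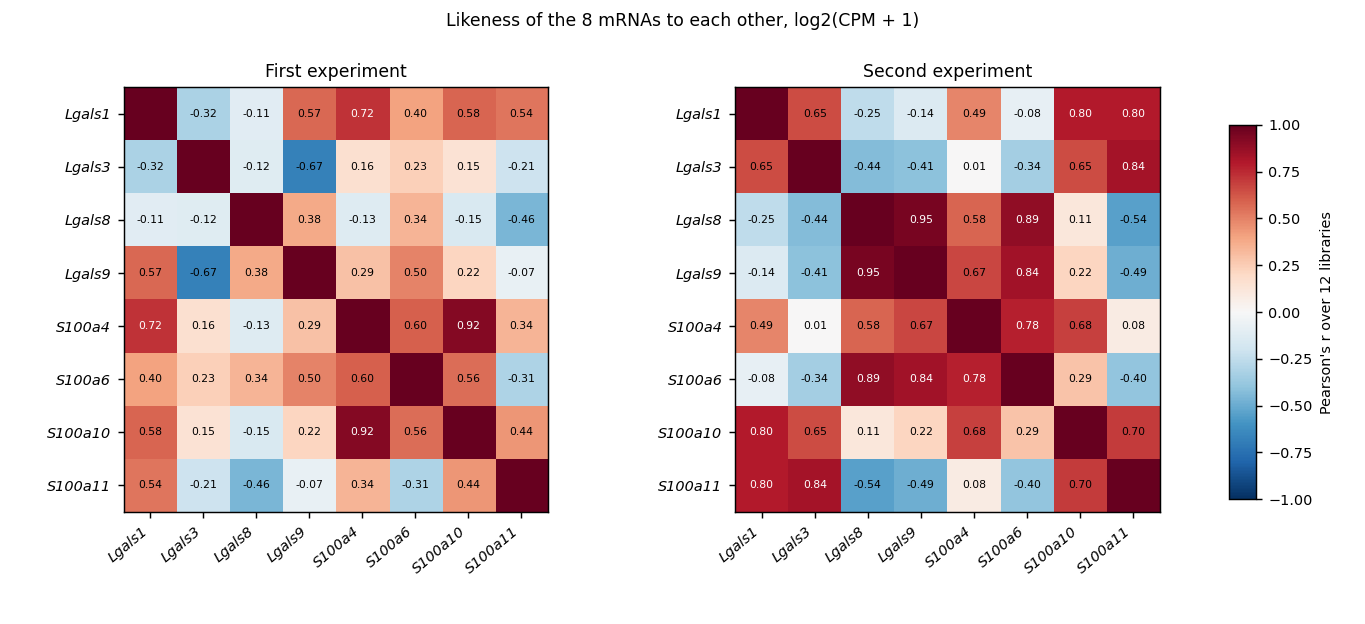
Pearson's r of log2(CPM + 1) between each pair of the 8 mRNAs over the 12 libraries of the first (left) and the second experiment (right), from blue (-1) to red (1). *Lgals8*, *Lgals9* and *S100a6* form a red block in the second experiment that is paler in the first.

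Few other family members were measured. Of 7 other galectin genes, 3 could be tested, and of 15 other S100 genes also 3, and none of these 3 S100 genes was called in any comparison with sgControl. *S100a8* and *S100a9*, which neutrophils hold in large amounts, averaged 0.157 and 0.119 CPM in the first experiment and were at 0 in the second. *Lgals3bp*, a secreted glycoprotein that binds galectin-3, was higher in sgCbfb LPs of the second, at 140, 76.7 and 50.9 CPM against a mean of 20.4 CPM with sgControl (1.95, adjusted P = 1.78e-06). In LPs of the first, it averaged 22.3 CPM with sgCbfb and 23.7 CPM with sgControl (-0.09, adjusted P = 0.964). In Phase 1 cells it fell from 53.6 to 20.7 CPM with sgCbfb (-1.37, adjusted P = 0.00721). The galectin-like gene *Lgalsl* rose with sgCbfb in Phase 1 cells (2.24, adjusted P = 0.00196) and, in the second experiment, with sgCbfb (1.31, adjusted P = 0.000136) and sgCTCF (1.27, adjusted P = 0.000421). In LPs of the first, it averaged 12.3 CPM with sgCbfb and 9.44 CPM with sgControl and was not called. Its sgControl Phase 1 libraries held only 2 to 5 reads.

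Among partners of S100 proteins, 12 of 15 were tested in the first experiment and 13 in the second. *Anxa2*, which forms a complex with S100A10, was called higher with sgCbfb in the second (25.2 against 9.55 CPM, 1.24, adjusted P = 0.0054) and not in LPs of the first (16.9 against 13.6 CPM). It also rose from LPs to Phase 1 cells with sgControl (45.6 against 13.6 CPM, 1.73, adjusted P = 0.00201), as did *Anxa6* (536 against 249 CPM, 1.09, adjusted P = 4.5e-06). With sgCTCF no partner was called, and 4 had an adjusted P value under 0.05, all higher, in a comparison where 6.13% of all genes were higher by that rule. *Anxa2* was at 12 ± 3.80 CPM (SD, n = 3) there, against 9.55 ± 2.52 with sgControl.

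Of 14 ligands and receptors of galectins, 13 were tested. *Cd7*, a receptor of galectin-1, was at 24.2, 31.6 and 23.8 CPM in sgControl LPs and at 0 in all 3 sgCbfb LP libraries of the first experiment (adjusted P = 6.44e-07). In the second, it averaged 17.3 CPM for sgControl and 0.18 CPM for sgCbfb (adjusted P = 1.75e-10), and in Phase 1 cells 106 and 5.93 CPM (adjusted P = 2.36e-06). *Cd44*, an adhesion receptor, moved the other way: it rose by 1.23 (adjusted P = 0.00143) and 1.52 (adjusted P = 1.51e-09) in LPs and by 1.43 (adjusted P = 0.000153) in Phase 1 cells. *Spn*, which encodes CD43, fell with sgCbfb in the second experiment (-1.08, adjusted P = 3.71e-07) and in Phase 1 cells (-1.02, adjusted P = 0.000146), and *Selplg*, the ligand of P-selectin, fell in the second (-1.16, adjusted P = 5.28e-09). With sgCTCF, none was called. *Cd7* and the αL integrin gene *Itgal* rose with Notch stimulation in sgControl cells (1.96 and 1.15, adjusted P = 0.00893 and 0.000209).

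Of 12 enzymes that build or cap the glycans galectins bind, *St6gal1*, which adds a sialic acid that blocks galectin-1, fell from 67.8 CPM in LPs to 15.0 CPM in Phase 1 cells with sgControl (-2.19, adjusted P = 2.8e-05). It was higher in sgCbfb than in sgControl Phase 1 cells, at 44.8 CPM (1.61, adjusted P = 0.00116). *Mgat4b*, a branching enzyme, fell from 29.4 to 12 CPM with Notch stimulation (-1.25, adjusted P = 0.0239). *St3gal1*, a sialyltransferase of O-glycans, rose with sgCbfb in the second experiment from 9.92 to 21.7 CPM (1.11, adjusted P = 0.00412). No enzyme was called with sgCTCF, or with sgCbfb in LPs of the first experiment. The median of the tested enzymes was -0.48 with sgMed12 against sgControl, where that of all genes was -0.02, and none was called. Against sgCTCF, *B4galt1*, which adds the galactose itself, was lower with sgMed12, at 60.2 and 158 CPM for sgMed12 and sgCTCF (log2 difference -1.39). *St3gal1* was also lower with sgMed12 against sgCTCF (-1.05), as were *St3gal1* and *Mgat1* against sgCbfb (-1.58 and -1.32). By the call thresholds, no enzyme was higher with sgMed12 in either comparison.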

How the data were processed

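QuantSeq 3′ mRNA libraries of 24 samples were analysed, with groups and replicates from the sample labels. Per the labels and methods, fastp removed adapters, STAR aligned the reads to mm10, and each library was scaled to the same total. The aligner's settings, annotation and strand setting are not given in the sources used here. The deposited values are named TPM but are CPM, since every value of a library was a multiple of the same step whatever the gene's length, and dividing by it gave whole reads (within 0.1 of a read) for 99.98% to 100% of values. A last line without an identifier was left out. Genes with at least 1 CPM in 3 libraries were tested with limma 3.58.1 (R 4.3.3, variances along a trend) on log2(CPM + 1), 13239 genes in the first experiment and 13177 in the second. A call needed an adjusted P value below 0.05, means that differed by over 1 on the log2 scale and at least 1 mean above 10 CPM. The interaction had no fold threshold. With 3 libraries a group, the smallest two-sided P value of an exact permutation test is 0.1. The members and gene lists were chosen with earlier results of these data known. All members were fitted in every comparison, and the text gives a part of these values. Of the lists, a part of the called genes is named, at most 6 a list and comparison. The genes most like a member were the top 2 by Pearson's r in the second experiment. The interferon and CTCF motifs, and the windows shown, were chosen after the values were seen. Of 55487 genes listed, 55141 were in GENCODE M21. RefSeq promoter entries were found for 6 of the 8 members. Alternatives were pseudocounts of 0.1 and 5, other filters and scalings, a replicate block, only the groups compared, the adjusted P value alone, edgeR 4.0.16 on the recovered reads, and each library left out. The test was tried on simulated data before use. Bounds from a count of 0 cover counting error only. Tables and plots were made with pandas 2.3.3, numpy 2.4.6 and matplotlib 3.10.9. The columns hold no comparisons by the authors.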

Additional observations from a re-analysis of the deposited data

Results flagged for a closer look

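For a pair of members, the effect of sgCbfb differed between stages of the first experiment by the interaction term of the limma fit. For *Lgals9*, it was lower in Phase 1 cells than in LPs by a log2 difference of -1.08 (adjusted P = 0.00769). The Phase 1 libraries with sgCbfb were at 164, 134 and 174 CPM and those with sgControl at 166, 181 and 174 CPM, whereas all LP libraries with sgCbfb were above all with sgControl. For *Lgals3*, it was higher in Phase 1 cells by 2.60 (adjusted P = 0.00686). Both were called under all 9 other settings and in all 12 fits without a single library, with *Lgals9* between -1.18 and -0.95 and *Lgals3* between 2.32 and 2.88 in the latter. *Lgals3* rested on 12 to 79 reads per library.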

How the results depend on the processing

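Of the members' 1224 values under other settings in the comparisons without sgMed12, 1186 kept their direction and their side of the thresholds, 14 lost a call, 11 gained one, and 13 changed sign. Of 528 values in the sgMed12 comparisons, which carry no test, 513 kept their sign, and the 15 that did not each had a single library left out. Counting the adjusted P value alone, without fold and level, gave 3 members with sgCbfb in LPs of the first experiment (2.85% of all genes), 5 and 3 for Phase 1 against LPs with sgControl and sgCbfb (6.48% and 2.24%), and 6 with sgCbfb and 3 with sgCTCF in the second (12.5% and 10.3%). The same count was 3 and 5 for sgMed12 against sgCTCF and sgCbfb (20% and 16.8%). The sgMed12 values chose the members, so these counts cannot serve as a test and nothing is read from them. A pseudocount of 0.1 or no filter left 1 member called for Phase 1 against LPs with sgControl, since *S100a11* was lost. With single libraries left out, the members called ranged from 0 to 2 for sgCbfb in LPs of the first experiment, 1 to 4 for Phase 1 against LPs with sgControl, and 0 to 3 with sgCbfb. In the comparisons without sgMed12, the values whose sign turned were not called and were at most 0.17 in size. The *S100a10* interaction was -0.019 with median-of-ratios scaling, -0.0249 and -0.0399 with edgeR under TMM or DESeq2 size factors, and *Lgals1* with sgCbfb in the second experiment was 0.00747 with the reduced library total. With single libraries left out, the *S100a10* interaction ranged from -0.20 to 0.20, *Lgals1* from -0.0272 to 0.0781 for Phase 1 against LPs with sgCbfb and from -0.0571 to 0.0429 with sgCbfb in the second experiment, *Lgals8* from -0.38 to 0.11 for Phase 1 against LPs with sgControl, and with sgCTCF *Lgals8* from -0.0312 to 0.19 and *S100a6* from -0.0602 to 0.34. In the sgMed12 comparisons, signs turned for 9 differences, with sizes of up to 0.32. Against sgControl, *Lgals1* reached -0.13, *S100a4* -0.0498, *S100a6* -0.013 and *S100a10* -0.13. Against sgCTCF, *S100a6* reached -0.12, *Lgals8* -0.0438 and *Lgals9* 0.0386. Against sgCbfb, *Lgals1* reached -0.12 and *Lgals3* 0.0779, from -0.32. The cause was not tested. Genes called higher with sgMed12 among all genes ranged from 22 to 243, the highest without sgMed12 replicate 2.

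With the replicate number as a block, the members called were 1, 2, 2, 1 and 2 in the first experiment's comparisons, as without it. In the second, they were 3 with sgCbfb and 1 with sgCTCF, also as without it. For sgMed12 against sgControl, sgCTCF and sgCbfb, 1, 1 and 2 members passed the same thresholds (1.03%, 4.01% and 4.48% of all genes without the block). The sgMed12 values chose the members, so these last counts cannot serve as a test. Deviations of same-numbered libraries from their group means correlated by a median of 0.033 (-0.0403 to 0.139) in the first and 0.0662 (-0.118 to 0.185) in the second. For differently numbered libraries of different groups, the medians were -0.0139 (-0.13 to 0.068) and -0.0301 (-0.189 to 0.131). Same-numbered libraries were thus slightly more alike, with ranges that overlapped, and only the block setting takes the number into account. A fit with only the groups compared cannot differ for the interaction and was not run there. At these depths, *Lgals3* had as few as 12 reads in a library, and its differences have the widest intervals.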
